A study of Mus musculus with 50 samples.

Results

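The proteasome is the protease of the cytosol and nucleus that degrades proteins tagged with ubiquitin. Its genes carry symbols that begin with Psm, and 50 of the 24552 gene symbols in the counts of nucleus accumbens (NAc) RNA have Psm, a letter from a to g and a digit. They comprise 31 genes for core subunits that every proteasome needs, 5 counterparts of core subunits that are made in immune cells, thymus or testis, 4 activators, 1 inhibitor, 7 assembly chaperones and 2 others described below. Subunits with other symbols are not among them. The members were found by symbol and not by a measured value, but this rule was chosen with earlier results of these data known.

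The 20S core particle is a barrel of stacked rings. The outer rings are built from alpha subunits (Psma genes) and gate the entry, and the inner rings are built from beta subunits (Psmb genes), of which *Psmb5*, *Psmb6* and *Psmb7* carry the proteolytic sites. The 19S cap, with ATPases (Psmc genes) and non-ATPase subunits (Psmd genes), binds ubiquitylated proteins, removes the ubiquitin and feeds the unfolded chain into the core. In neurons the proteasome takes part in the turnover of synaptic proteins, and after exposure to interferon cells can replace the catalytic subunits by *Psmb8*, *Psmb9* and *Psmb10* to form the immunoproteasome.

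RNA came from NAc punches of RiboTag (RT) mice, in which cells that express Cre make an HA-tagged ribosomal protein, so that anti-HA immunoprecipitation (IP) collects ribosome-bound mRNA of the Cre cells while the input holds RNA of all cells. Mice carried RT; D1-Cre for medium spiny neurons (MSNs) with the D1 dopamine receptor or RT; D2-Cre for those with the D2 receptor, were C57BL/6 in the labels (C57BL/6J in the study's methods) and 8 to 12 weeks old, and were undefeated controls (Con) or had met an aggressive CD1 male on up to 10 days (10 min per day in the labels, where the study's methods give a shorter time) and were then called resilient (Res) or susceptible (Sus) by social interaction. The D1-IPs numbered 13, with 4 from Con, 4 from Res and 5 from Sus mice. The D2-IPs numbered 15, with 5 of each stress group, and the inputs 18, with 3 of each stress group in either line. Tissue of 2 mice was pooled for a library. A further 4 D1-IP libraries of undefeated mice labelled Sirt1-KO (RT; Sirt1-floxed; D1-Cre, C57BL/6, age not given in the sources used here) stand in a table with the 4 D1 Con libraries. Both Cre transgenes are BAC lines, all mice carry the tagged ribosomal protein, and the D2-Cre line also marks cholinergic interneurons. Libraries of 1 fraction came from separate pools, and p-values measure the spread between pools. Input RNA was set aside from the homogenates used for IP, so that an IP and an input can come from the same mice, which the test of IP against input treats as independent. The study ran its libraries in several sets that the labels do not assign, so that a set could not be entered in a model.

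Counts on genes per library, which set the precision of every value, ranged from 18384265 to 31009626 in IPs and inputs. Levels are given as counts per 1e6 counts after TMM scaling (CPM), and differences as log2 fold changes ± SE from edgeR's quasi-likelihood test with p-values adjusted over all genes tested. The 4 lists of glial and endothelial markers were almost absent from IPs. Summed microglial markers came to 12.4 CPM (D1) and 16.1 CPM (D2) in IPs against 222 and 218 CPM in the inputs of the 2 lines, and all 6 were lower in IPs of both lines. All 5 astrocyte, 5 oligodendrocyte and 4 endothelial markers were also lower in IPs of both lines, with sums in D1-IPs of 55.8, 555 and 4.77 CPM where D1 inputs had 693, 4140 and 70.1 CPM. In D2-IPs the same sums were 41.3, 474 and 5.77 CPM, against 690, 4101 and 72.6 CPM in D2 inputs. The 3 cholinergic markers summed to 7.50 CPM in D1-IPs but 75.1 CPM in D2-IPs, and to 59.1 and 58.3 CPM in the inputs. Of the 7 neuron and MSN markers, 7 were higher than in inputs in D1-IPs, and 5 were higher and 2 lower in D2-IPs. *Drd1* was higher (log2 1.30) and *Drd2* lower (log2 -1.82) in D1-IPs than in D2-IPs, as labelled.

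The sequence just upstream of the start site was examined because the members largely moved together, and because proteasome genes are textbook targets of the transcription factor Nfe2l1 (NRF1). RefSeq promoters on GRCm38.p6 were found for 42 of the 50 genes, and the 250 bases before the start were searched on both strands for 3 motifs. The ETS core CCGGAAG was in the windows of 31% of the 42 genes (13 genes) and of 36% of the 25 core subunit genes, against 7.83% of 27025 genes. The element bound by Nfe2l1 and Nfe2l2, TGACNNNGC, was in 11.9% of the 42 genes (5 genes), against 11.5% of all genes. The interferon-stimulated response element was in 7.14% (3 genes), against 3.46%. These 3 were *Psmb3*, *Psmd4* and *Psmd9*, and the windows of *Psmb8*, *Psmb9* and *Psmb10* held no match. None of the 3 motifs contains another, and a match describes letters only.

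The windows of a catalytic subunit gene, of the 19S gene with the smallest p between IP and input, and of an activator gene that did not differ are shown, because the levels of these genes differ in what follows. Capitals mark the Nfe2l1 element in *Psmb6* and the ETS core in *Psmd2* (reverse strand) and *Psme3*. The *Psmb6* window is chr11:70525107-70525356, that of *Psmd2* is chr16:20651402-20651651 and that of *Psme3* is chr11:101315963-101316212, all on the plus strand of GRCm38.
Psmb6: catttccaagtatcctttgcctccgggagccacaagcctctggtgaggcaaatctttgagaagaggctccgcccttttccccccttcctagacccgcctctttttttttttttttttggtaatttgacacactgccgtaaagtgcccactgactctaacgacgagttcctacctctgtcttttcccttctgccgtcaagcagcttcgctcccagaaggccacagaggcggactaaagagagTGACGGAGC
Psmd2: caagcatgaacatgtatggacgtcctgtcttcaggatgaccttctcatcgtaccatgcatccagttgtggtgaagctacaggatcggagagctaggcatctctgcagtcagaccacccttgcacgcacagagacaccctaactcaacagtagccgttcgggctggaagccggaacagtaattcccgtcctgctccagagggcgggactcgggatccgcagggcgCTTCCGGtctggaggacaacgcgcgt
Psme3: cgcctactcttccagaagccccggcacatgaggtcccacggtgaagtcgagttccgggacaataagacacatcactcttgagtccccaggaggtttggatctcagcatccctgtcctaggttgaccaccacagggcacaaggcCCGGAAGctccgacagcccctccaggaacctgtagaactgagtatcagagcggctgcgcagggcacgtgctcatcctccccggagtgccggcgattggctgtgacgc

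Proteasome genes were higher in the ribosome-bound RNA of both MSN types than in tissue RNA. Of 48 members tested, 40 were higher and 3 lower in D1-IPs than in D1 inputs, and 41 were higher and 4 lower in D2-IPs than in D2 inputs (edgeR adjusted p under 0.05). Of all 15404 genes tested, 39.2% were higher and 42.7% lower in the D1 line, and 37.8% were higher and 44.9% lower in the D2 line. All 31 core subunit genes were higher in both lines, with a median log2 fold change of 0.79 in D1 and 0.75 in D2, against -0.04 and -0.08 over all genes tested. Their fold changes ran from 0.26 to 1.20 in D1 and from 0.28 to 1.00 in D2. The IP and input libraries did not overlap for any of the 31 genes in D1, nor in D2 for any except *Psmd11*. The share of all genes without overlap is not given here, and most of the 15404 genes differed (12612 in D1 and 12742 in D2).

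The summed level of the 31 core subunits in D1-IPs was 3557 ± 130 CPM (SD, n = 13) and in D2-IPs 3450 ± 207 CPM (SD, n = 15). Inputs were at 2040 ± 45.4 CPM (SD, n = 9) in the D1 line and 2061 ± 32.8 CPM (SD, n = 9) in the D2 line. The lowest IP library (3162 CPM) was above the highest input library (2150 CPM). Neuronal and glial shares of the tissue move with this difference as given above. In bulk samples, fewer cells of a type and less RNA per cell cannot be told apart, and the part of either in these differences was not tested. Most genes differed between IP and input (12612 of 15404 in D1), whereas TMM scaling rests on genes that do not, so the fold changes are relative to the other genes.

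**Figure D1:**
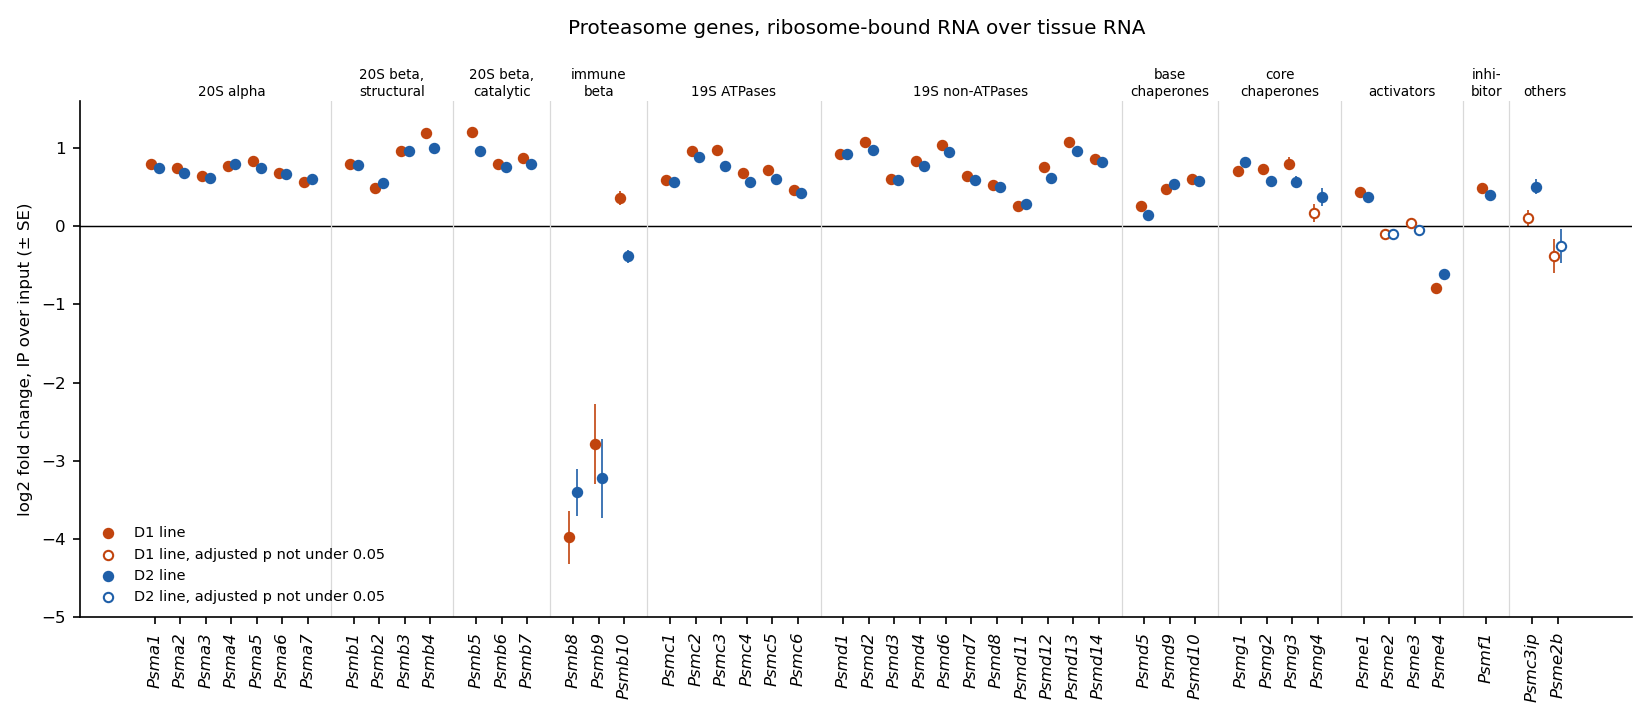
Log2 fold change of IP over input (y axis, ± SE) for the 48 proteasome genes tested, in order of role along the x axis, in the D1 line and the D2 line. Open symbols have an adjusted p of 0.05 or more. The 31 core subunits all lie above 0. Below it lie 5 members in D1 and 7 in D2, among them *Psme4*, *Psmb8* and *Psmb9* in both lines and *Psmb10* in D2.

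In the 20S alpha rings, all 7 subunits were higher in IPs of both lines, with a median of 0.74 in D1 and 0.68 in D2. *Psma4* reached 94.2 CPM in the lowest, 101 in the median and 113 in the highest D1-IP, and 91.4, 99.1 and 120 CPM in D2-IPs. Its inputs were at 56.5, 59.7 and 63.4 CPM in D1 and at 56.0, 57.2 and 60.2 CPM in D2. The groups lay apart in both lines (log2 0.77 ± 0.03, adjusted p = 2.16e-23, and 0.80 ± 0.03, adjusted p = 3.26e-24). The testis counterpart of *Psma7*, *Psma8*, had at most 1 count in any IP and at most 6 in any input and was not tested.

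The 4 structural beta subunits were higher in both lines, with a median of 0.88 in D1 and 0.87 in D2. Among them *Psmb4* changed most, by 1.19 ± 0.06 in D1 and 1.00 ± 0.05 in D2. The 3 catalytic subunits were higher as well, by a median of 0.87 in D1 and 0.80 in D2. *Psmb5*, the subunit with chymotrypsin-like activity, was at 46.6 CPM in the lowest, 56.0 in the median and 60.5 in the highest D1-IP, and at 20.7, 24.3 and 25.4 CPM in D1 inputs. In D2-IPs it was at 35.1, 49.99 and 59.8 CPM, against 21.8, 24.5 and 28.03 CPM in D2 inputs. Its IP libraries were all above its input libraries, and the log2 fold change of 1.20 ± 0.06 (adjusted p = 1.80e-21) in D1 was the largest of the core subunits. In D2 it was 0.96 ± 0.06 (adjusted p = 1.22e-18). *Psmb6* (caspase-like activity) and *Psmb7* (trypsin-like activity) had log2 fold changes of 0.79 and 0.87 in D1 and of 0.76 and 0.80 in D2. *Psmb7* shares 405 exon bases with *Nek6* on the other strand, and the strand setting of the counts is not given in the sources used here.

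Of the immune counterparts, *Psmb8* and *Psmb9* were lower in IPs. *Psmb8*, which replaces *Psmb5* and lies on chromosome 17 from 34197721 to 34201454, had 0 to 6 counts per D1-IP and 0 to 7 per D2-IP, whereas inputs of either line had 16 counts or more. Its mean level in the D1 line was 0.085 CPM for IPs and 1.38 CPM for inputs, and in the D2 line 0.123 CPM for IPs and 1.38 CPM for inputs. The libraries did not overlap (log2 -3.98 ± 0.34, adjusted p = 4.23e-14, and -3.40 ± 0.30, adjusted p = 1.56e-13). *Psmb9*, which replaces *Psmb6*, had at most 4 counts in D1-IPs and 7 in D2-IPs, and 4 to 18 and 2 to 36 counts in the inputs. Its log2 fold changes were -2.78 ± 0.51 (adjusted p = 4.66e-06) and -3.22 ± 0.51 (adjusted p = 2.84e-07), and in D2 the libraries overlapped. Both genes were highest in the same tissue library, D2 input Sus 2, with 55 and 36 counts. *Psmb8* and *Psmb9* are neighbors on chromosome 17 and share exon bases with *Gm20496* and *Tap1* on the other strand. All markers of microglia, astrocytes, oligodendrocytes and endothelial cells moved in the same direction as these 2 genes, and their part in it was not tested.

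*Psmb10*, which replaces *Psmb7*, was measured in all IPs and was the member that differed most between D1-IPs and D2-IPs. In D1-IPs it was at 9.35 CPM in the lowest, 11.9 in the median and 17.3 in the highest library, and in D1 inputs at 7.44, 9.35 and 10.97 CPM. In D2-IPs it was at 5.74, 8.21 and 10.96 CPM and in D2 inputs at 8.91, 10.8 and 11.9 CPM. IPs were thus on average above inputs in D1 (log2 0.36 ± 0.09, adjusted p = 0.000392) and below them in D2 (log2 -0.39 ± 0.09, adjusted p = 0.000129), with overlap in each line. With control libraries alone the D2 value was -0.22 and was no longer past the threshold (adjusted p = 0.329). The thymus subunit *Psmb11* had at most 6 counts in any IP or input and was not tested. As a share of the summed CPM of the 3 catalytic subunits and their 3 immune counterparts, the latter came to 4.49% ± 0.711 (SD, n = 13) in D1-IPs, 3.21% ± 0.380 (SD, n = 15) in D2-IPs, 7.52% ± 0.792 (SD, n = 9) in D1 inputs and 8.11% ± 0.654 (SD, n = 9) in D2 inputs, almost all of it *Psmb10* in the IPs.

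**Figure D2:**
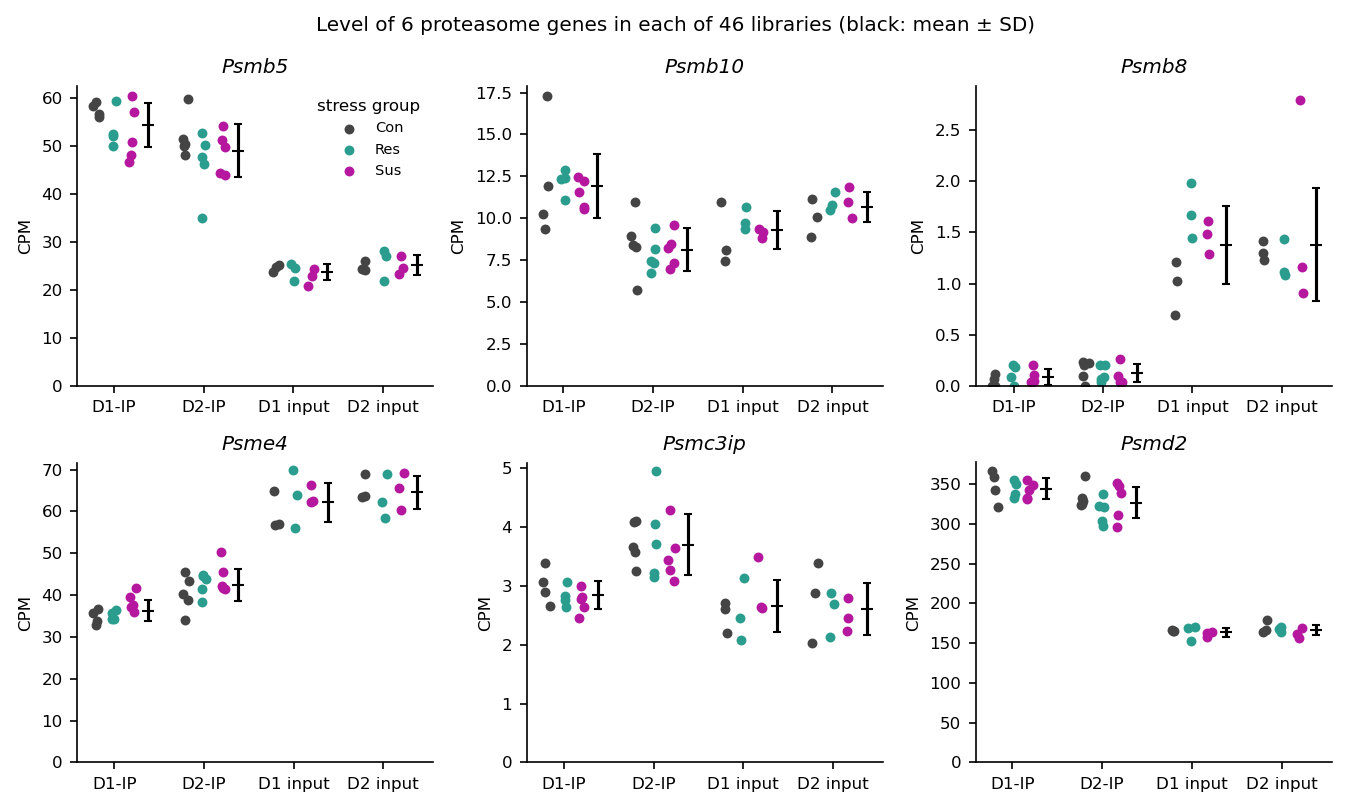
CPM (y axis, from 0) of *Psmb5*, *Psmb10*, *Psmb8*, *Psme4*, *Psmc3ip* and *Psmd2* in each of the 46 libraries, one panel per gene, by line and fraction (x axis). Points are libraries colored by stress group, and bars are mean ± SD. *Psmb5* and *Psmd2* are higher in every IP than in any input, *Psmb8* and *Psme4* are lower, and *Psmb10* is higher in D1-IPs than in D2-IPs with overlap.

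Of the 19S cap, all 6 ATPases that unfold substrates were higher in IPs, with a median of 0.71 in D1 and 0.59 in D2. *Psmc2* had the smallest p of them in both lines and was higher by 0.97 ± 0.04 in D1 (adjusted p = 2.78e-25) and 0.89 ± 0.04 in D2 (adjusted p = 1.81e-24). All 11 non-ATPase subunits among the members were higher too, with a median of 0.83 in D1 and 0.77 in D2. *Psmd2*, a large scaffold subunit of the base, is the most abundant member in CPM. It was at 321 CPM in the lowest, 343 in the median and 367 in the highest D1-IP and at 296, 325 and 361 CPM in D2-IPs. Inputs reached only 153, 165 and 171 CPM in D1 and 156, 166 and 179 CPM in D2. The log2 fold changes of 1.07 ± 0.03 (adjusted p = 8.91e-29) and 0.97 ± 0.03 (adjusted p = 7.13e-28) had the smallest p of the members in both lines. *Psmd1*, the other large scaffold of the base, *Psmd13* and *Psmd6*, subunits of the lid, followed with 0.92, 1.08 and 1.04 in D1 and 0.93, 0.96 and 0.94 in D2. *Psmd1* shares exon bases with *Gm21972* and *Htr2b*, and *Psmd13* with *Sirt3*. The lid subunit *Psmd11*, named after its values were seen, changed least of the core subunits among the members. It was at 60.4 CPM in the lowest, 65.3 in the median and 73.0 in the highest D1-IP and at 49.98, 54.3 and 57.6 CPM in D1 inputs (log2 0.26 ± 0.03, adjusted p = 6.78e-10). In D2 its log2 fold change was 0.28 ± 0.03 (adjusted p = 4.26e-11), with overlap.

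Per kb of exon the core subunits were at unequal levels although each ring or cap holds 1 copy of each. *Psmc5* was highest, at 118 CPM per kb in D1-IPs, 108 in D2-IPs and 71.4 in the inputs of either line. *Psmd11* was lowest, at 10.3, 10.5, 8.51 and 8.62 CPM per kb in D1-IPs, D2-IPs, D1 inputs and D2 inputs. The median of the 31 genes was 37.4 CPM per kb in D1-IPs, 37.5 in D2-IPs, 21.0 in D1 inputs and 21.2 in D2 inputs. The exon length is the union of all annotated exons, and unused exons lower the level per kb. These 2 genes were also chosen after their values were seen. By quartile of exon length, the core median of the log2 fold change between IP and input ran from 0.69 to 0.81 over both lines in the 3 shorter quartiles, and that of all genes from -0.15 to 0.00 in all 4. The longest quartile held 1 core gene, *Psmd1*.

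Chaperones that assemble the particle were mostly higher in IPs as well. The 3 base chaperones *Psmd5*, *Psmd9* and *Psmd10* had a median of 0.48 in D1 and 0.54 in D2, and all were higher in both lines. Of the core chaperones, *Psmg1*, *Psmg2* and *Psmg3* were higher in both lines, by 0.71, 0.73 and 0.80 in D1 and by 0.82, 0.58 and 0.57 in D2. *Psmg4* did not pass the test in D1 (log2 0.17 ± 0.11, adjusted p = 0.168) and was higher in D2 (log2 0.38 ± 0.11, adjusted p = 0.0025).

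The alternative caps were mixed. *Psme1* of the 11S activator was higher in IPs (log2 0.44 in D1 and 0.38 in D2), whereas its partner *Psme2* (log2 -0.10 in each line, adjusted p = 0.163 and 0.166) and the nuclear activator *Psme3* (log2 0.05 and -0.04, adjusted p = 0.143 and 0.185) did not pass the test. *Psme3* was one of the more abundant members, with medians of 99.5 CPM (D1) and 95.8 CPM (D2) in IPs and of 96.9 and 98.7 CPM in the inputs. *Psme4*, which encodes the activator PA200 and lies on chromosome 11 from 30771726 to 30880361, was the abundant member that was lower in IPs. It was at 32.9 CPM in the lowest, 35.9 in the median and 41.8 in the highest D1-IP, against 56.1, 62.5 and 69.9 CPM in D1 inputs. D2-IPs were at 33.9, 42.2 and 50.3 CPM and D2 inputs at 58.5, 63.8 and 69.3 CPM. The libraries did not overlap in either line (log2 -0.78 ± 0.05, adjusted p = 3.11e-19, and -0.61 ± 0.04, adjusted p = 3.85e-16). The inhibitor *Psmf1* was higher in IPs, by 0.49 ± 0.05 and 0.40 ± 0.04. *Psme2b*, a near-identical copy of *Psme2* whose reads could be split between both genes, and *Psmc3ip*, a meiotic recombination factor with a matching symbol that is no proteasome subunit, complete the members together with the untested genes.

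Beyond the 50 members, 26 genes that work with the proteasome were followed. Of these, 19 were higher and 4 lower in D1-IPs than in D1 inputs, against 39.2% and 42.7% of all genes tested. The same numbers held in D2, against 37.8% and 44.9%. The medians were 0.56 in D1 and 0.36 in D2. The segregase *Vcp* rose by 1.28 and 1.17, the ubiquitin-activating enzyme *Uba1* by 0.96 and 0.84, the polyubiquitin gene *Ubb* by 1.35 and 1.22 and the 19S ubiquitin receptor *Adrm1* by 0.82 and 0.89. The factor *Nfe2l1* was higher in IPs (0.66 and 0.53), and its paralog *Nfe2l2* was lower (-3.69 and -3.75). *Ddi2* and *AI314180*, which encodes the proteasome adaptor Ecm29, were lower, at log2 -0.32 and -0.36 in D1 and -0.34 and -0.33 in D2.

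Of the 48 members, 6 had a difference between IP and input that itself differed between lines (edgeR adjusted p under 0.05), against 25.5% of all genes tested. D1 minus D2, the log2 values were 0.75 ± 0.13 for *Psmb10* (adjusted p = 1.90e-05), 0.24 for *Psmb5* (adjusted p = 0.0253), 0.20 for *Psmc3* (adjusted p = 0.0057) and 0.12 for *Psmc4* (adjusted p = 0.0374). In the other direction they were -0.40 for *Psmc3ip* (adjusted p = 0.0257) and -0.18 for *Psme4* (adjusted p = 0.0361). The value of *Psmc4*, an ATPase of the base, was not past the threshold in several alternative fits.

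D1-IPs and D2-IPs had nearly equal levels of core subunits. D1-IPs also held D2-MSN markers above D1 inputs (means for *Drd2* 97.8 against 78.2 CPM, *Adora2a* 306 against 164 CPM, *Penk* 2091 against 778 CPM). D2-IPs held D1-MSN markers below D2 inputs (*Drd1* 134 against 170 CPM, *Pdyn* 98.5 against 157 CPM). An IP is thus not RNA of 1 MSN type alone, and the part of this in the values below was not tested. Between all D1-IPs and all D2-IPs the median log2 fold change of the 31 genes was 0.02, with a range from -0.08 to 0.14 and a median SE of 0.04. Of 46 members tested, 6 were higher and 2 lower in D1-IPs (edgeR adjusted p under 0.05), against 19.6% and 21.3% of 14224 genes, and none of the 8 passed a fold change of 1.5. *Psmb10* differed most (log2 0.54 ± 0.09, adjusted p = 8.48e-06), followed among the higher genes by *Psmc3* (0.14, adjusted p = 0.00105) and *Psmb5* (0.14, adjusted p = 0.0311). The subunits *Psmc5*, *Psmd12* and *Psmd4* were higher by 0.11, 0.11 and 0.08. *Psme4* was lower by -0.24 ± 0.04 (adjusted p = 2.27e-05), and *Psmc3ip* by -0.39 ± 0.08 (adjusted p = 0.000178), at 2.46, 2.82 and 3.39 CPM in the lowest, median and highest D1-IP and 3.08, 3.65 and 4.95 CPM in D2-IPs. All 8 overlapped between lines. *Psmc3ip* shares 385 exon bases with *Mlx* on the other strand and *Psmc3* shares some with *Slc39a13*. The 5 astrocyte markers were higher in D1-IPs, and 4 of 6 microglial and the 3 cholinergic markers were higher in D2-IPs, and their part in these differences was not tested.

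In undefeated mice alone, 2 of 46 members differed, against 14% of all genes tested. *Psmb10* was at 9.35, 17.3, 10.3 and 11.9 CPM in the 4 D1 Con IPs and at 10.96, 8.42, 8.92, 8.26 and 5.74 CPM in the 5 D2 Con IPs (log2 0.51 ± 0.15, adjusted p = 0.0204). The second D1 library was the highest of all, and the groups overlapped. *Psme4* was at 36.8, 33.8, 35.7 and 32.9 CPM in D1 Con and at 33.9, 45.6, 43.4, 40.2 and 38.9 CPM in D2 Con (log2 -0.23 ± 0.07, adjusted p = 0.0366). The first D2 library was within the range of D1. Without the second D1 library neither gene was called. Tissue inputs of the 2 lines did not separate: 0 of 48 members differed, against 0.0202% of all genes, and 3 members were at an unadjusted p under 0.05 in edgeR, against 5.2% of all genes. DESeq2 also gave 0 and 3. The 3 were *Psmb10* (log2 -0.19), *Psmb4* (-0.10) and *Psmd6* (-0.06), with edgeR's unadjusted p = 0.0124, 0.0238 and 0.0354 and values below 0 for a lower level in the D1 line. The direction of *Psmb10* in inputs was thus opposite to that in IPs.

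Of the 26 genes that work with the proteasome, 9 were higher and 0 lower in D1-IPs than in D2-IPs, against 19.6% and 21.3% of 14224 genes. Among the 9 were the 19S deubiquitylases *Uchl5* (log2 0.22, edgeR adjusted p = 0.000152) and *Usp14* (0.15, adjusted p = 0.029). The 19S-bound thioredoxin *Txnl1* (0.18, adjusted p = 0.00235) and *Nfe2l1* (0.10, adjusted p = 0.000187) were also among them. The largest of the 9 changes was that of *Uchl5*.

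**Figure D3:**
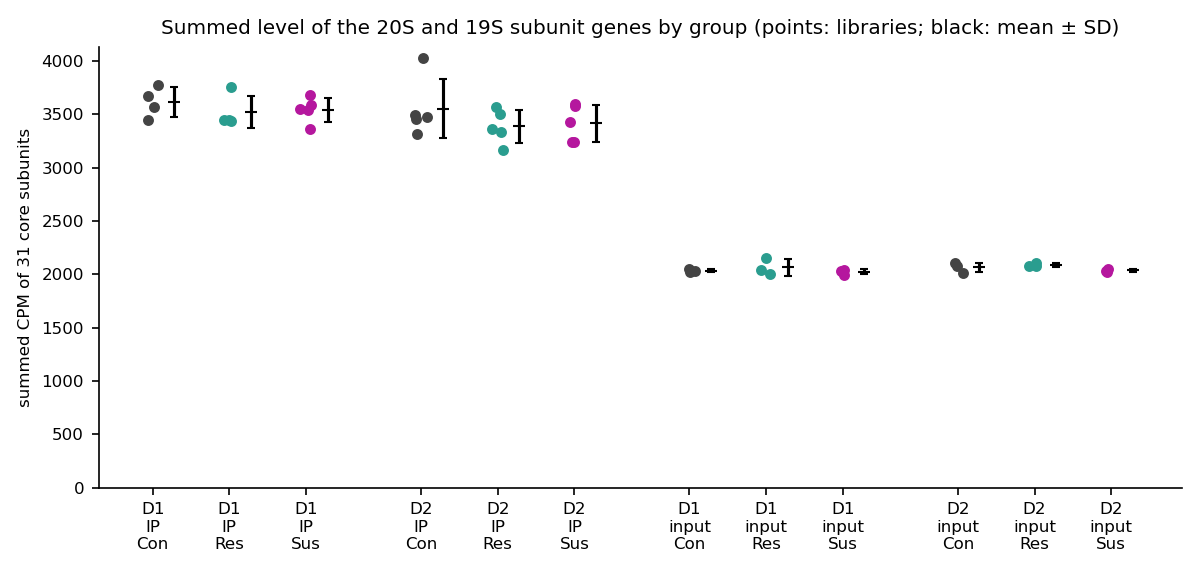
Summed CPM of the 31 core subunits (y axis) in each library of the 12 groups of line, fraction and stress (x axis), with mean ± SD. The 28 IP libraries lie from 3162 to 4028 CPM and the 18 input libraries from 1995 to 2150 CPM, and stress groups overlap except Res and Sus of the D2 inputs.

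Defeat stress was compared because the study asked which mRNAs of each MSN type part susceptible from resilient mice. The summed level of the core subunits was 3613 ± 140 CPM in Con (SD, n = 4), 3520 ± 154 CPM in Res (SD, n = 4) and 3541 ± 114 CPM in Sus (SD, n = 5) among D1-IPs. In D2-IPs it was 3552 ± 275 CPM in Con, 3385 ± 157 CPM in Res and 3414 ± 174 CPM in Sus (SD, n = 5 each). Inputs of both lines lay at 2049 ± 33.9 CPM in Con, 2074 ± 51.9 CPM in Res and 2029 ± 19.01 CPM in Sus (SD, n = 6 each). The groups overlapped in each case.

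No member had an adjusted p under 0.05 in edgeR in any of the 9 stress comparisons, nor in DESeq2. At an unadjusted p under 0.05, the threshold the study used, the members passing were 1 of 46 for Sus vs Con in D1-IPs (5.34% of all genes tested), 0 for Res vs Con (2.11%) and 2 for Sus vs Res (4.23%). In D2-IPs they were 1 of 46 for Sus vs Con (3.68%), 2 for Res vs Con (3.02%) and 0 for Sus vs Res (1.66%). In inputs they were 0 of 48 for Sus vs Con (4.47%), 1 for Res vs Con (3.23%) and 1 for Sus vs Res (5.54%). DESeq2 gave the same unadjusted numbers except 2 for Res vs Con in inputs. At most 2 members thus passed in a comparison, and none of these numbers stood far from the share over all genes.

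*Psmd11* was the core subunit past this threshold in IPs. In D1-IPs it was at 60.7, 60.4, 61.1 and 64.6 CPM in Res and at 67.8, 66.3, 70.6, 68.3 and 73.0 CPM in Sus. Every Sus library was above every Res library (log2 0.16 ± 0.05, unadjusted p = 0.00559, adjusted p = 0.999). Con libraries, at 63.2, 65.3, 64.6 and 66.3 CPM, overlapped both. They barely overlapped Sus, with a highest Con value of 66.266 and a lowest Sus value of 66.264 CPM. How many of all genes part Sus from Res without overlap is not given here. *Psme2b* had 11, 7, 7, 10 and 10 counts in D1 Sus, 30, 16, 25 and 26 in D1 Res and 25, 20, 16 and 14 in D1 Con (Sus vs Res log2 -1.43, unadjusted p = 0.000563, and Sus vs Con log2 -0.93, unadjusted p = 0.0199). The Sus libraries were below all others, at counts where reads shared with *Psme2* leave the value uncertain. The members past the threshold in D2-IPs were *Psmf1* (Sus vs Con, log2 0.14, unadjusted p = 0.041), *Psmg2* (Res vs Con, log2 -0.26, unadjusted p = 0.0159) and *Psmg4* (Res vs Con, log2 0.40, unadjusted p = 0.03), all with overlapping groups. In inputs they were *Psmb4* (Res vs Con, log2 0.11, unadjusted p = 0.0333) and *Psmg4* (Sus vs Res, log2 -0.31, unadjusted p = 0.0321), also with overlap.

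As a group, the core subunits had medians near 0 in every stress comparison. The median log2 fold change in D1-IPs was -0.05 for Sus vs Con (23 of 31 below 0), -0.04 for Res vs Con (28 below 0) and 0.01 for Sus vs Res. In D2-IPs it was -0.07 for Sus vs Con (29 below 0), -0.07 for Res vs Con (30 below 0) and 0.00 for Sus vs Res. Both comparisons with Con share the control libraries. The median SE of a single gene was 0.06 to 0.07 in IPs. The medians moved with the controls used. In the first D2 Con IP, 27 of 31 core subunits were the highest of the 5 controls, and its summed level of 4028 CPM stood above the next of the 15 D2-IPs, at 3594 CPM. Without it the medians were -0.02 for Sus vs Con (20 below 0) and -0.02 for Res vs Con (21 below 0), and without the second D2 Con IP they were -0.10 for each (30 and 31 below 0). Without the first D1 Con IP the D1 medians were -0.01 for both comparisons (18 and 23 below 0), and without the fourth they were -0.06 for each (28 and 30 below 0). Inputs had medians of -0.01 for Sus vs Con, 0.02 for Res vs Con and -0.03 for Sus vs Res, with a median SE of 0.04.

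**Figure D4:**
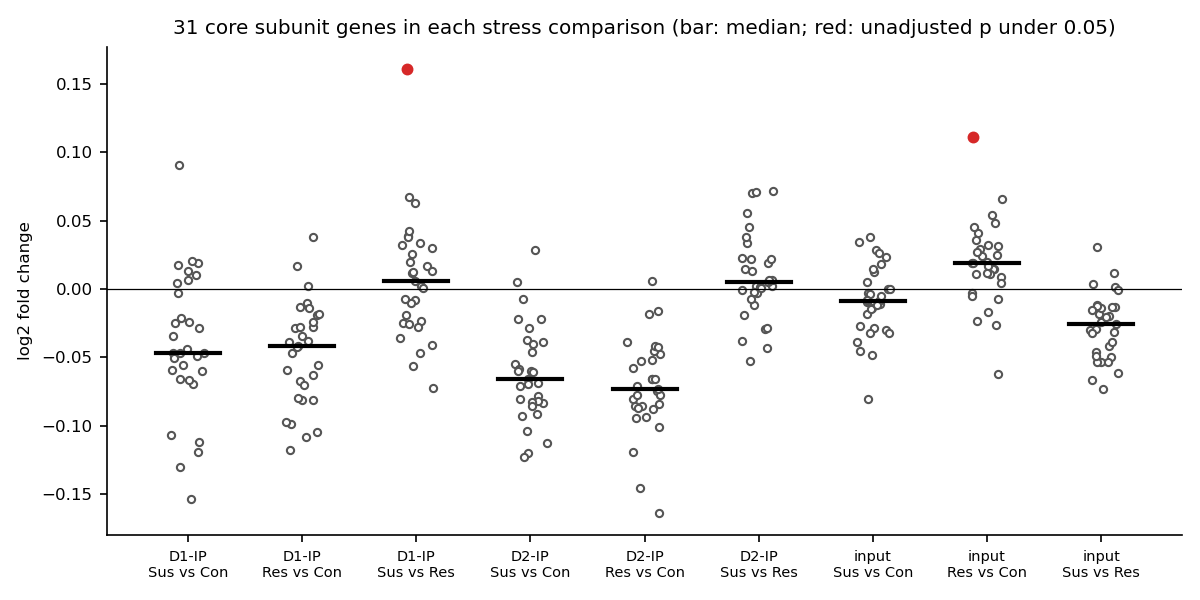
Log2 fold change (y axis) of each of the 31 core subunits in the 9 stress comparisons (x axis), with a bar at the median. Red points have an unadjusted p under 0.05, and the only one in IPs is *Psmd11* in Sus vs Res of D1.

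No stress effect on a member differed between D1-IPs and D2-IPs at an adjusted p under 0.05 in edgeR or DESeq2, with 3, 1 and 3 members at an unadjusted p under 0.05 in edgeR for Sus vs Con, Res vs Con and Sus vs Res, against 1.82%, 2.36% and 2.03% of 14224 genes, and 2, 1 and 3 in DESeq2. For Sus vs Con the largest edgeR difference other than the low *Psme2b* was that of *Psmf1*, at -0.27 (D1 minus D2, unadjusted p = 0.00654).

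Libraries labelled Sirt1-KO were compared with D1 Con to ask whether loss of the deacetylase Sirt1 in D1-MSNs alters these genes. *Sirt1* itself was at 13.1, 16.6, 14.8 and 14.4 CPM in D1 Con and at 15.2, 16.2, 13.2 and 10.2 CPM in the libraries labelled Sirt1-KO (log2 -0.10 ± 0.13, adjusted p = 0.768). The groups overlapped, and counts over the whole gene cannot check the loss of a floxed exon. Whether these libraries were prepared together with D1 Con is not given in the sources used here, so genotype and preparation cannot be told apart.

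Of 46 members tested, 0 had an adjusted p under 0.05 in edgeR, against 1.66% of 13626 genes, and 4 had an unadjusted p under 0.05, against 17.3% of these genes. DESeq2 gave 0 and 4. The 31 core subunits had a median log2 fold change of 0.02 and a range from -0.06 to 0.14, with SEs from 0.05 to 0.09, and their summed level was 3425 ± 125 CPM in the D1 Con libraries and 3501 ± 86.7 CPM in those labelled Sirt1-KO (SD, n = 4 each). *Psmd11* was at 59.7, 61.8, 61.2 and 63.0 CPM in D1 Con and 67.7, 64.2, 67.4 and 71.8 CPM in Sirt1-KO (log2 0.14 ± 0.05, unadjusted p = 0.0231, adjusted p = 0.205). All libraries labelled Sirt1-KO were above D1 Con. *Psmc1*, an ATPase of the base, was at 171, 153, 172 and 156 CPM against 187, 172, 172 and 187 CPM (log2 0.14 ± 0.06, unadjusted p = 0.0332). Its groups barely lay apart, with a highest D1 Con value of 171.8 and a lowest Sirt1-KO value of 172.4 CPM. *Psme3* differed by 0.14 ± 0.05 (unadjusted p = 0.0229), with overlap. The share of all genes whose groups lay apart is not given here. *Psmc3ip* was at 2.90, 2.75, 2.52 and 3.22 CPM in D1 Con and 2.17, 2.13, 2.19 and 2.23 CPM in Sirt1-KO, without overlap (log2 -0.38 ± 0.16, unadjusted p = 0.0319, adjusted p = 0.233). The 4 core chaperones had log2 fold changes from -0.17 to -0.08, none past the threshold. None of the 26 genes that work with the proteasome had an adjusted p under 0.05 in edgeR, against 1.66% of all genes tested. An unadjusted p under 0.05 was reached by 3 of them, against 17.3%. The 5 astrocyte and 5 oligodendrocyte markers had negative log2 fold changes in this comparison, with medians of -0.51 and -0.36, and their part in the members' values was not tested.

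**Figure D5:**
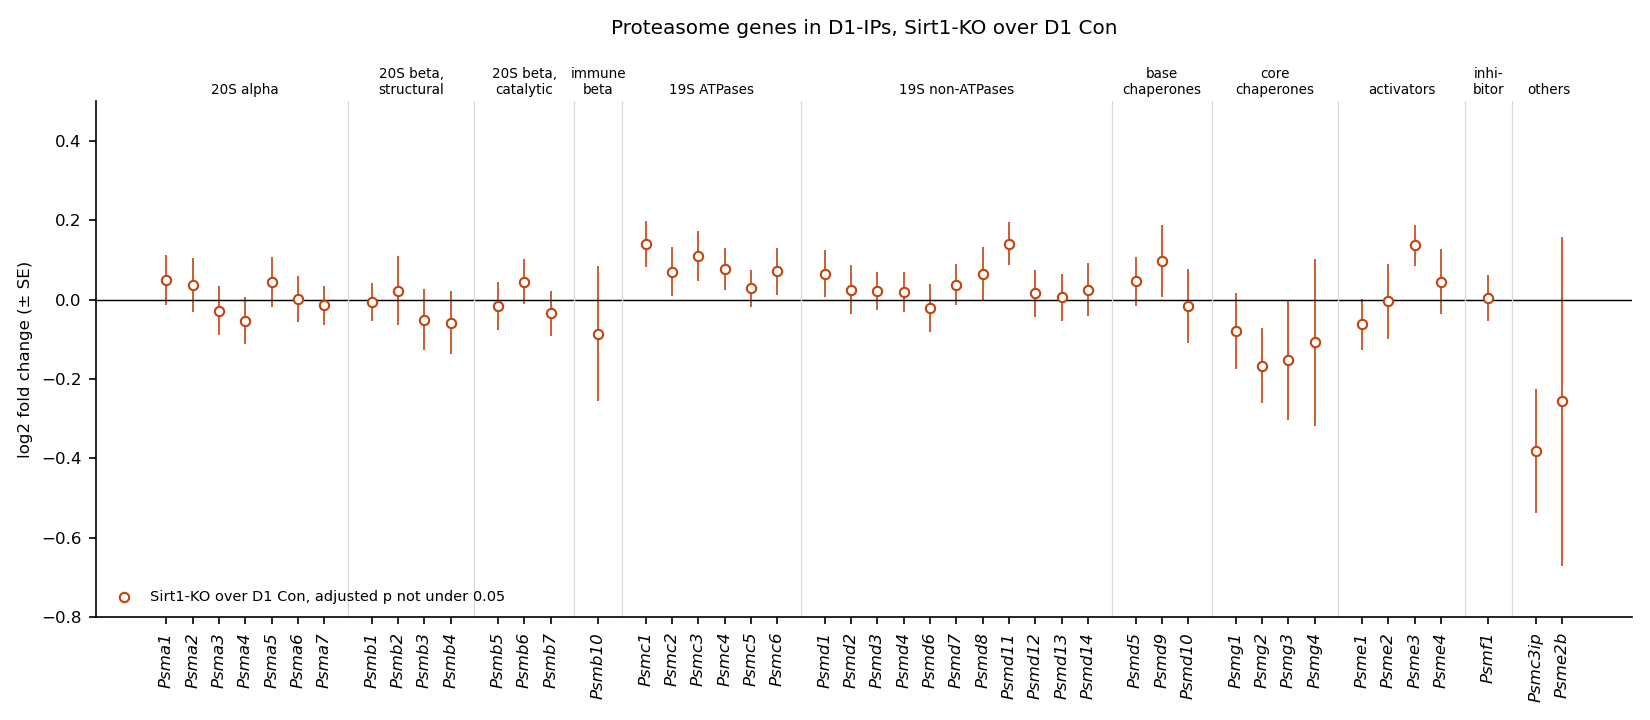
Log2 fold change (y axis, ± SE) of 46 proteasome genes between the 4 libraries labelled Sirt1-KO and the 4 D1 Con libraries, in order of role along the x axis. No gene has an adjusted p under 0.05, and the core subunits lie from -0.06 to 0.14.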

How the data were processed

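Poly-A RNA of RiboTag IPs and inputs was measured by RNA-seq. Per the submitters' processing notes and the study's methods, the authors trimmed reads with cutadapt, checked them with FastQC, aligned them to mm10 with STAR and deposited raw counts per gene symbol, made with HTSeq. Versions, the annotation and the strand setting are not given in the sources used here. The tables also hold 5 entries that name no gene, which took 21.5% of reads in IPs and 37.8% in inputs on average and were left out. The 2 columns named D1 Con 5 and D1 Res 5 match no sample description used here and were not used. In the Sirt1-KO table, 5 symbols listed 2 times were taken once.

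Symbols were matched by rule, and 31 core subunits and the other roles were listed by textbook function. The members, lists and tests were chosen with earlier results of these data known. Counts were normalized by TMM and tested with edgeR 4.0.16 (glmQLFit, glmQLFTest; limma 3.58.1; R 4.3.3) after filterByExpr (minimum count 10, minimum total 15), with Benjamini-Hochberg adjustment. The models held 46 IP and input libraries (15404 genes, 48 members, used for IP vs input), 28 IPs (14224, 46), 18 inputs with line or stress as covariate (14820, 48), and 8 libraries of the Sirt1-KO table (13626, 46), whose depth was 22174187 to 31785984 counts in Sirt1-KO. IP vs input and D1 vs D2 were means over the stress groups. SEs follow from the quasi-likelihood F statistic. CPM of the 46 libraries use the TMM factors of their model and those of the Sirt1-KO table its own.

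Named are, per comparison, up to 6 members in each direction with the smallest p past the threshold, the catalytic, immune, activator, inhibitor and chaperone genes, symbols that are no subunit, and up to 6 of the 26 other pathway genes in each direction. A result for 1 of these pathway genes is not reported here. Markers covered microglia, astrocytes, oligodendrocytes, endothelial cells, neurons and MSNs, and cholinergic interneurons. Positions came from GENCODE vM21 on GRCm38 by symbol, and promoter windows from RefSeq on GRCm38.p6. No 2 libraries were duplicates. The correlation of deviations from group means was over 0.1 in 3 of 18 pairs of IP and input of one number (-0.19 to 0.51), 6 of 13 pairs of D1-IP and D2-IP, 7 of 27 pairs of IPs across stress groups and 0 of 3 pairs of Sirt1-KO and D1 Con. The replicate block was the pool of mice for IP vs input, where the protocol takes both fractions from 1 homogenate, and the number elsewhere. Alternatives were scaling by RLE, no filter beyond 1 count in all, a minimum mean of 50 counts, DESeq2 1.42.0, adjusted p or a fold change of 1.5 as the rule, models of only the groups compared, control libraries only, the replicate number as a block, and each library left out in turn (100 fits). The programs were tested on simulated data. Figures used Python 3.11.15, numpy 2.4.6, pandas 2.3.3 and matplotlib 3.10.9.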

Additional observations from a re-analysis of the deposited data

Results flagged for a closer look

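Over 238 combinations of 34 genes and 7 groups of 4 or 5 libraries, 14 held a highest or lowest library that stood apart from its group by Dixon's criterion, where chance gives about 1 in 20 groups, or 11.9. Of these, 7 came from 1 library. In the first D2 Con IP, *Psmb5* (59.8 CPM), *Psmb7* (151 CPM), *Psmc4* (96.2 CPM), *Psmc5* (183 CPM), *Psmd12* (104 CPM), *Psmd2* (361 CPM) and *Psmd6* (112 CPM) stood above the other 4 controls. *Psmd11* stood apart at 64.6 CPM in the fourth D1 Res IP and at 56.9 CPM in the second D2 Sus IP. In the third D2 Sus IP *Psmb8* was at 0.261 CPM (7 counts) and *Psmg4* at 4.51 CPM, and *Psme2b* was at 1.25 CPM (35 counts) in the first D2 Res IP. In the library labelled Sirt1-KO 3, *Psma4* was at 90.4 CPM and *Psmb9* at 0.0323 CPM. The latter is 1 count, where the other libraries labelled Sirt1-KO had 0, so that a single read met the criterion.

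The difference between IP and input itself differed between the D1 and D2 lines for 6 genes, by a log2 value (D1 minus D2) of 0.75 for *Psmb10*, 0.24 for *Psmb5*, 0.20 for *Psmc3*, 0.12 for *Psmc4*, -0.40 for *Psmc3ip* and -0.18 for *Psme4* (edgeR adjusted p under 0.05).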

How the results depend on the processing

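The number of members that differed between IP and input was 42 to 44 in D1 and 43 to 46 in D2 over the alternatives run for it, each library left out included, and 33 and 29 with a fold change over 1.5 required as well. That for Sirt1-KO was 0 in all alternatives run. Of 1029 values of named members, 948 stayed on their side of the threshold, 81 were no longer past it, and none reversed. Counts of a few genes moved more. Between all D1-IPs and D2-IPs, a fold change of 1.5 as the rule left 0 of 8 genes. In controls it left 0 of 2, a model of only these groups left 0, and all genes with at least 1 count left 1. By stress, an adjusted p as the rule gave 0 in D1 Sus vs Con, D1 Sus vs Res, D2 Sus vs Con, D2 Res vs Con, input Res vs Con and input Sus vs Res. In D1 Sus vs Con, a model of only the groups compared gave 3 and the replicate block 2. All genes with at least 1 count gave 1 in D1 Res vs Con and 0 in D2 Sus vs Con, and a minimum mean of 50 counts gave 1 in D1 Sus vs Res. In D2 Sus vs Con, a model of only the groups compared gave 0, and the replicate block gave 4, as it did in D2 Res vs Con. RLE and DESeq2 gave 2 in input Res vs Con. Across stress groups and lines, labels do not say that a number marks a shared mouse or batch, and some but not all pairs of one number deviated together. With the pool of mice as the replicate block, IP vs input gave 43 in D1 and 45 in D2. The replicate block changed no other count by over 1.5 times. Leaving out 1 library gave 0 to 3 in controls D1 vs D2, 1 to 5 in D1 Sus vs Con, 0 to 3 in D2 Sus vs Con, 0 to 4 in D2 Res vs Con, 0 to 2 in D2 Sus vs Res, 0 to 1 in input Sus vs Con, 0 to 2 in input Res vs Con and 0 to 2 in input Sus vs Res. The core median of IP vs input fell to 0.68 in D1 and 0.66 in D2 with genes of at least 50 counts, and that of D1 vs D2 in controls rose to 0.07 without the first D2 Con library. The causes were not tested. *Psma8*, *Psmb11* and, in IPs alone, *Psmb8* and *Psmb9* were too low to be tested.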

Other observations

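The 26 genes that work with the proteasome had no adjusted p under 0.05 in edgeR in any of the 9 stress comparisons. In each, from 0 to 3 of them were at an unadjusted p under 0.05, against 1.66% to 5.54% of all genes tested. In IPs these were the shuttle factor gene *Ubqln4* in D2 (log2 -0.10 for Sus vs Con, unadjusted p = 0.0275, and -0.09 for Sus vs Res, unadjusted p = 0.0459) and *Ufd1*, a cofactor of *Vcp*, in D1 (log2 -0.10 for Sus vs Con, unadjusted p = 0.0444). In inputs the smallest p was that of the ubiquitin ligase gene *Ube3a* (log2 0.16 ± 0.05 for Sus vs Res, unadjusted p = 0.0062). All of these groups overlapped.

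The second D2 Sus input, in which *Psmb8* (2.79 CPM) and *Psmb9* (1.83 CPM) were highest, had a summed level of the microglial markers of 210.1 CPM, within the range of 202 to 236 CPM of the 9 D2 inputs. Its endothelial markers summed to 85.2 CPM, the highest of these 9 inputs, with the next at 83.2 CPM. These markers did not move together, as *Ly6c1* had the most counts of the 9 inputs (398, or 20.2 CPM) and *Cldn5* the fewest (225). *Flt1* (806 counts) and *Pecam1* (250 counts) were within the range of the other D2 inputs. A relation of the markers to *Psmb8* and *Psmb9* was not tested.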
